A study of Mus musculus with 2 samples.

Results

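Classical monocytes are the Ly6c2-high, Ccr2-positive monocytes of the mouse. Cells selected as classical monocytes by the rule given next, called members here, made up 356 of the 8451 CD45+ lung cells that passed the filters. The bleomycin (BLM) library held 153 among 4526 cells (3.38%, 95% interval 2.87 to 3.95). The naive library held 203 among 3925 cells (5.17%, 4.5 to 5.91). Not every member held Ccr2, as described below. The cells were selected on their measured UMI counts, a UMI (unique molecular identifier) standing for 1 captured RNA molecule. A member held at least 200 genes and at most 15% mitochondrial UMIs, at least 5 UMIs of F13a1, Vcan, Ly6c2 and Ms4a4c together with at least 1 of F13a1 or Vcan, and more of these 4 genes than of the nonclassical genes Ace, Adgre4, Treml4, Eno3 and Cd300e. Cells with more than 1 Cd3 UMI, with C1q genes and Ms4a7 or the alveolar macrophage genes Plet1, Car4 and Atp6v0d2 at 0.1% of UMIs or more, or with S100a8 and S100a9 at 0.5% or more, were left out. Living CD45+ cells had been sorted from lungs of wild-type C57BL/6N mice, either untreated or 15 days after bleomycin was given into the trachea, and sequenced with the BD Rhapsody whole transcriptome kit. Bleomycin damages DNA and injures the lung, which then scars. Each library pooled equal numbers of cells from 3 mice, so there was 1 library per group and no replicate: mouse-to-mouse spread could not be measured, no test between the groups was possible, and treatment and library cannot be told apart. Every interval in the text is a 95% interval that covers counting error only.

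Classical monocytes leave the bone marrow through Ccr2, the receptor for the chemokine Ccl2, and enter inflamed tissue, where they can become macrophages or dendritic cells. Nonclassical monocytes patrol the vessel wall and derive in large part from classical ones. Classical monocytes respond strongly to type I interferon, which switches on antiviral genes, and to signals that act through the transcription factor NF-kB, which switches on cytokines and chemokines.

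Stretches of the promoters of 10 genes described here are shown first. They were picked because they hold the letters that these 2 pathways are known to read, and Isg15, Tnfaip3 and Il1rn also after their values were seen, so they do not stand for all genes named. The sequences are RefSeq's, on GRCm38.p6, within a window from 250 bases before to 50 after the gene's start, read 5′ to 3′ on the gene's own strand. Capitals mark a searched motif found on either strand. The first 5 genes belong to the interferon response and were lower in the BLM library, and the motif was GAAA, any 2 bases, GAAA, the core letters of the interferon-stimulated response element.
Ifit3, chr19:34583377-34583446, plus strand: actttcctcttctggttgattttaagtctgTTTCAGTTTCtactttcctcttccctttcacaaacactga
Rsad2, chr12:26456533-26456602, minus strand: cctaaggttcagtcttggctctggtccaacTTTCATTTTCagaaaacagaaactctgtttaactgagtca
Oas1g, chr5:120887614-120887655, minus strand: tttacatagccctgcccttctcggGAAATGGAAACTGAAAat
Oas3, chr5:120777695-120777764, minus strand: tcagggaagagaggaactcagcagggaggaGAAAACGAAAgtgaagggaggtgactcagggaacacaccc
Isg15, chr4:156200845-156200914, minus strand: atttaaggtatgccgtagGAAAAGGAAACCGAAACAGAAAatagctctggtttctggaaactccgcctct
The other 5 genes belong to the chemokine and NF-kB groups and were higher in the BLM library, and the motif was GGG, any 2 bases, TTTCC, the core letters of an NF-kB site.
Cxcl2, chr5:90903791-90903860, plus strand: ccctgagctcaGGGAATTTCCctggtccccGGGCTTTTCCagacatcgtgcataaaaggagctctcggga
Cxcl3, chr5:90785998-90786067, plus strand: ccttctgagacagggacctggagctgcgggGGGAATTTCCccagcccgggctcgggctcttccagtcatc
Nfkbia, chr12:55492648-55492706, minus strand: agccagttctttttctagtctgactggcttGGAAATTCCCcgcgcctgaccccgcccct
Tnfaip3, chr10:19015411-19015452, minus strand: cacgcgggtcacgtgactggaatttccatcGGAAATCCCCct
Il1rn, chr2:24345290-24345359, plus strand: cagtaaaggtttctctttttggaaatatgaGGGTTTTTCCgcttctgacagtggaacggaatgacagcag

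The interferon letters stood in the windows of 33 of 57 interferon response genes with a promoter in the RefSeq table (57.9%), against 1079 of 27025 genes in all (3.99%). The NF-kB letters stood in 4 of 16 chemokine genes (25%) and in 5 of 26 inflammatory genes (19.2%), against 512 of 27025 genes (1.90%). Of all windows, 22 held both motifs, and in 3 of these the matches shared a base. Among the 30 genes ranked by their ratio, the interferon letters stood in 5 of 12 lower genes with a promoter in the table (41.7%), and the NF-kB letters in 3 of 12 higher genes (25%). The interferon letters also stood in 1 of 12 higher genes and the NF-kB letters in 1 of 12 lower genes (8.33% each). A match describes letters in a window and is neither a binding site nor a cause. The median log2 ratio of the interferon genes was -1.17 for the 28 measured genes with the letters and -1.21 for the 23 without them. For the NF-kB letters, the chemokine median was 2.3 for the 4 measured genes with them and 3.14 for the 6 without. The inflammatory median was 1.36 for 5 genes with them and 0.70 for 15 without.

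The members were checked on Ccr2, which the rule did not use. Ccr2 (chromosome 9, 124101950 to 124113557, plus strand, GRCm38) was detected in 142 of 153 BLM members and 196 of 203 naive members. Its summed level was 1387 counts per 1000000 member UMIs (CPM) in the BLM library and 1633 CPM in the naive library, against 12.7 and 45.5 CPM in B cells, which should lack it. The members as a group were thus Ccr2-positive in both libraries, although 11 BLM and 7 naive members held no Ccr2 UMI. The 4 genes of the rule, whose levels describe the choice of cells, were unequal between the libraries. Ly6c2, a surface marker of classical monocytes, stood at 1232 CPM in BLM and 3195 CPM in naive members, and Ms4a4c at 299 and 720.5 CPM. F13a1, the A subunit of coagulation factor XIII, stood at 1128 and 1282 CPM. Vcan, the matrix proteoglycan versican, went the other way, with 305.9 and 107.3 CPM. Ly6c2 and Ms4a4c are themselves known to respond to interferon, so a choice of cells on F13a1 and Vcan alone is given beside the interferon result.

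The threshold of 5 UMIs lay within a continuous range. The summed count of the 4 rule genes had a median of 12 per member in BLM and 20 in naive. Just inside the threshold, at 5 UMIs, were 9 BLM and 12 naive members, of which 88.9% and 100% held Ccr2. Just outside, at 4 UMIs but meeting every other condition, were 12 BLM and 12 naive cells, of which 66.7% and 75% held Ccr2. The limit on C1q genes alone removed 88 BLM and 45 naive cells. The shares of members depended on the genes chosen: with 2 or more UMIs of F13a1 and Vcan in place of the 4-gene sum, 169 of 4526 BLM cells (3.73%) and 166 of 3925 naive cells (4.23%) were members.

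BLM members held 729046 UMIs in all and naive members 968821, with medians per cell of 3905 (1698 to 25333) and 4464 (1203 to 13398). All passing cells held 22126042 UMIs (median 2437) and 17734002 UMIs (median 2759). The 2 tables shared 22 cell barcodes, and no barcode belonged to a member in both. The median member had 1641 genes and 4.70% mitochondrial UMIs in BLM and 1823 genes and 5.17% in naive.

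Some members stood apart from the rest. Lyz2, the lysozyme gene that monocytes express at a high level, had a median of 2.86% of a cell's UMIs in BLM and 3.24% in naive, yet it was under 1% in 11 members of each library. Members above 7500 UMIs numbered 13 in BLM and 10 in naive. The members with Lyz2 at 1% or more and at most 7500 UMIs, called the main body here, were 135 BLM and 184 naive cells, and the 18 and 19 others held 28.5% and 15.4% of member UMIs. Of the others, 5 BLM cells and 1 naive cell carried nearly all stromal transcripts, 5746 of 5774 and 691 of 720 UMIs of 10 fibroblast, endothelial and epithelial markers, although the sort was for CD45+ cells. Those 5 BLM cells held no Ccr2 UMI. Among naive members, 4 cells held 20 or more UMIs of Gzma, a granzyme of NK and T cells, and 2 held 10 or more of Siglech, a marker of plasmacytoid dendritic cells. Results are therefore given for all members and, for the gene groups and most of the genes, also for the main body, which was defined after the values were seen.

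**Figure D1:**
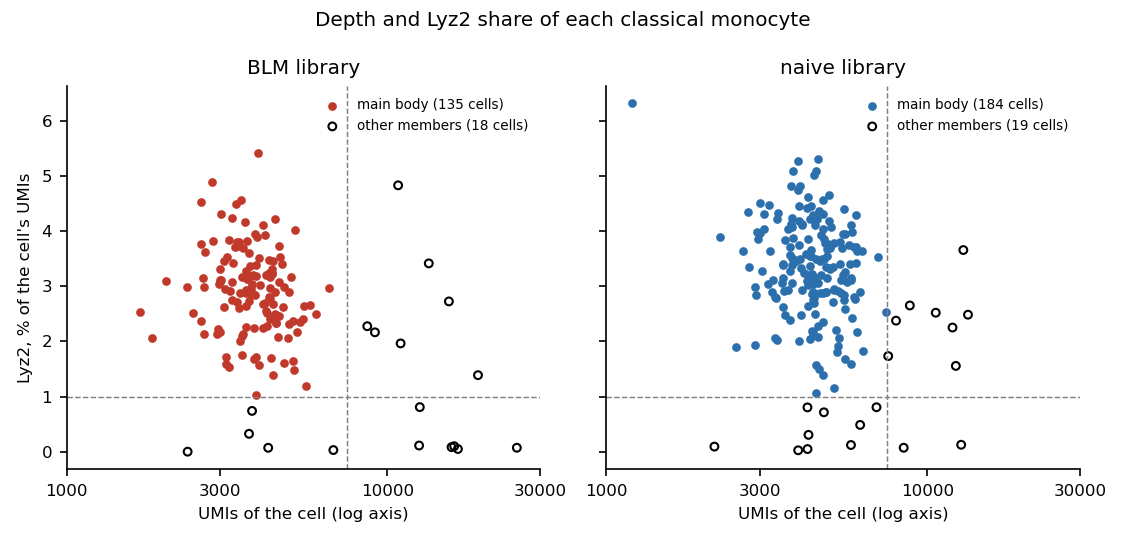
Each point is 1 cell selected as a classical monocyte, in the BLM library (153 cells) and the naive library (203 cells). The axes give its UMIs on a log scale and the share of its UMIs from Lyz2 in percent. Dashed lines mark 7500 UMIs and 1% Lyz2, the limits that define the main body (filled points, 135 and 184 cells). Open points are the other members, which by this definition were under 1% Lyz2 or above 7500 UMIs.

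Markers of other cells differed between the libraries within the members. The 10 listed B cell markers summed to 92 UMIs in BLM and 398 in naive members, and 66.7% and 36.9% of members held none. The NK cell markers summed to 35 and 408 UMIs, with at most 8.39 and 332 per 10000 UMIs in a single cell, and 86.3% and 61.6% of members held none. Plasmacytoid dendritic cell markers summed to 132 and 449 UMIs, with 3 of the 10 markers at 0 in BLM and 0 in naive. The macrophage markers outside the rule were higher in BLM members, with 1437 and 957 UMIs. T cell markers summed to 66 and 100 UMIs with 81.0% and 70.9% of members holding none, neutrophil markers to 349 and 554, and conventional dendritic cell markers to 146 and 366. Alveolar macrophage markers summed to 1773 and 1458 UMIs, those of red cells and platelets to 4 and 5, and those of basophils, mast cells and eosinophils to 6 and 15. The part of these transcripts in the results was not tested, except where a value without the cells that hold them is given.

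Across 7058 genes with at least 20 UMIs over the members, 536 (7.59%) were 2-fold or more higher and 375 (5.31%) were 2-fold or more lower in BLM members. In the main body, over 6037 genes, 224 (3.71%) were higher and 333 (5.52%) were lower, so the genes that were higher made up 58.8% of the calls over all members and 40.2% in the main body. The median log2 ratio of BLM over naive was -0.02 over all genes and -0.04 in the main body. Genes were ranked by the end of the ratio's interval nearer to 0, and the first 15 in each direction among those found in at least 10% of the members of the higher library, and at no more than 25% of the member level in its B cells, are described by name. When the main body was ranked the same way, 8 of the 15 higher and 11 of the 15 lower genes held their place among the 15. The 15 higher genes were Arg1, Spp1, Mmp12, Igfbp4, Timp1, Cxcl2, Cd63, Nrg1, Ednrb, Gpnmb, Ier3, Tfec, Mmp19, Cxcl3 and Ccr1. The 15 lower genes were Retnla, Ifit3, Rsad2, Ly6i, Oas1g, Oas3, Usp18, Lyz1, Slfn5, Oasl2, Cd209a, Rtp4, Irf7, Cd300lb and Pltp.

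**Figure D2:**
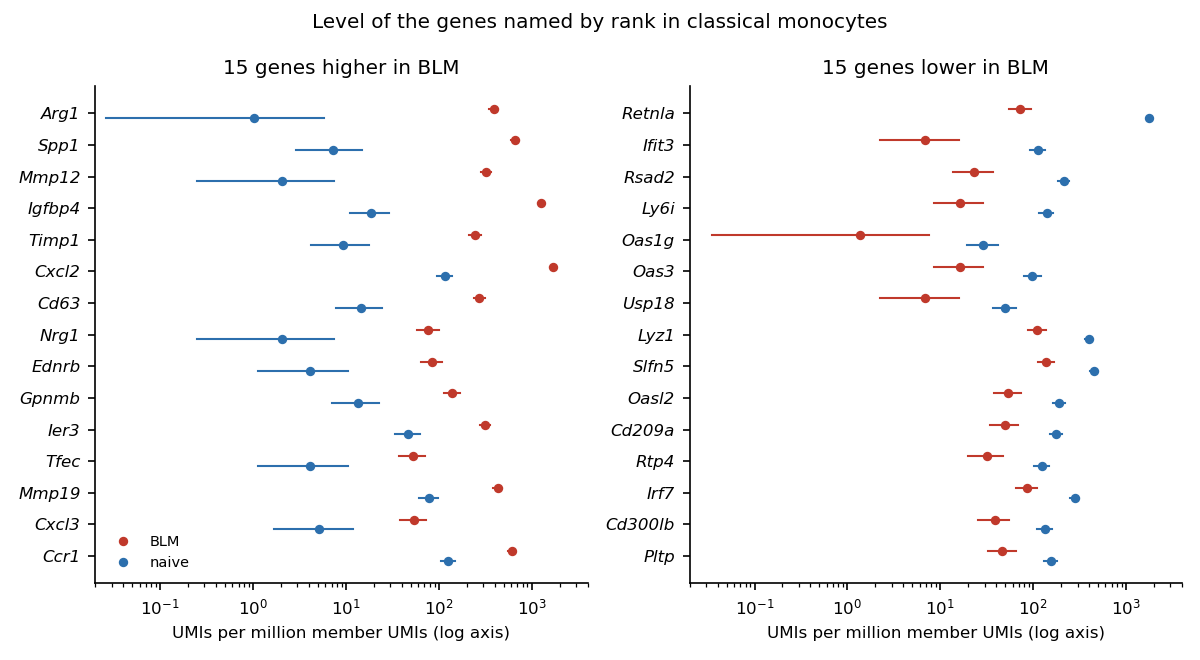
Level in counts per 1000000 member UMIs (log axis) of the 15 genes ranked highest and the 15 ranked lowest by the ratio of BLM over naive, with exact Poisson 95% intervals, in BLM (red) and naive (blue) classical monocytes. Among the genes higher in BLM, Cxcl2 had the highest BLM level at 1682 CPM, while Retnla had the highest naive level of the lower genes at 1775 CPM.

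Chemokine genes had the highest median of the functional groups over all members, though not in the main body. Of 16 measured chemokines, 11 were 2-fold or more higher and 2 were 2-fold or more lower in BLM members, with a median log2 ratio of 2.44. In the main body 5 of 11 were higher and 2 lower, with a median of 0.66, which was 1.75 where the main body was chosen by F13a1 and Vcan. Cxcl2 (chromosome 5, 90903871 to 90905938, plus strand), which draws neutrophils, had 1226 UMIs in BLM and 113 in naive members. That was 1682 against 117 CPM, a log2 ratio of 3.85 (3.57 to 4.14), and 3.39 (3.07 to 3.72) in the main body. The Cxcl2 transcripts were spread over 93 of 153 BLM cells and 53 of 203 naive cells. Each cell was also thinned to 2000 UMIs, for which 2 BLM members and 1 naive member were too shallow. Of the thinned cells, 46.7% and 15.2% of members held a Cxcl2 UMI, against 60.8% and 26.1% before thinning. B cells, with a median of 1732 UMIs in BLM and 1946 in naive, held Cxcl2 in 20.9% and 10.8% of cells at 141 and 49.0 CPM, below the members of the same library. The part of free RNA in the Cxcl2 result was not tested. Cxcl3, the neighbouring chemokine gene of the same family, had 39 and 5 UMIs, a log2 ratio of 3.37 (2.03 to 5.07), and 3.70 in the main body. Both genes carried the NF-kB letters printed above.

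Among the CC chemokines, Ccl6 was the most abundant, with 3147 and 2570 UMIs and a log2 ratio of 0.70 (0.63 to 0.78). Ccl9 had 1181 and 1240 UMIs and a ratio of 0.34 (0.22 to 0.46). Both therefore differed by more than counting error and by less than 2-fold. Ccl3 and Ccl4, which draw monocytes and T cells, had 86 against 19 and 66 against 18 UMIs, with ratios of 2.59 and 2.28 that were 1.47 and 1.41 in the main body. Several other high ratios rested on a few cells. The 5 richest BLM cells held 82.5% of Ccl2 UMIs, 98.1% of Ccl7 UMIs and 87.4% of Ccl24 UMIs, and Ccl2, the ligand of Ccr2, had a ratio of 1.90 over all members and 0.30 in the main body. Ccl17 went from 4.33 to 0.07, and Cxcl12 had no UMI in the main body of either library. The chemokines that were lower were Ccl5, with 13 and 295 UMIs and a ratio of -4.09 that was -1.99 in the main body, and Cxcl10, an interferon-induced chemokine, with 29 and 79 UMIs in 5 and 8 cells. The Cxcl10 ratio was -1.04, and 0.24 with cells chosen by F13a1 and Vcan. Per cell, the chemokine genes together had a median of 67.1 per 10000 UMIs in BLM and 43.2 in naive, and 65.2 and 43.4 in the main body.

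Of 14 chemokine and chemoattractant receptors, 4 were higher and 2 lower, with a median log2 ratio of 0.26, and 4 of 12 were higher in the main body with a median of 0.33. Ccr1 (chromosome 9, 123962124 to 123968692, minus strand), a receptor for Ccl3 and Ccl5, had 442 UMIs in BLM and 122 in naive members, or 606 against 126 CPM. Its log2 ratio was 2.27 (1.98 to 2.57), and 2.59 (2.28 to 2.92) in the main body. Ccr1 was spread over many cells, with a UMI in 113 of 153 BLM and 61 of 203 naive cells, in 58.9% and 17.6% after thinning, and with 14% of BLM UMIs in the 5 richest cells. Only 7.28% and 3.18% of B cells held Ccr1. C3ar1, the receptor for complement C3a, had 37 and 7 UMIs, a ratio of 2.81, and 2.09 in the main body. Cx3cr1, the fractalkine receptor that is high on nonclassical monocytes, was lower, with 70 and 232 UMIs and a ratio of -1.32 (-1.73 to -0.93), and -1.05 in the main body. Ccr2 itself had a ratio of -0.24 (-0.35 to -0.12), and -0.01 (-0.13 to 0.12) in the main body.

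Of 35 immediate early and stress genes, 8 were higher and 3 lower with a median log2 ratio of 0.14, and 15 lay below 0. The genes named next are its members Nfkbia, Ier3 and Socs3, together with Tnfaip3 from the inflammatory list, and Tnfaip3 and Socs3 were picked after their values were seen. Nfkbia (chromosome 12, 55489410 to 55492647, minus strand), which encodes the inhibitor IkB-alpha and is induced by NF-kB, had 1583 and 689 UMIs, or 2171 against 711 CPM. Its log2 ratio was 1.61 (1.48 to 1.74), and 1.85 in the main body. After thinning, 90.5% of BLM and 66.0% of naive members held it, while 49.2% and 45.4% of B cells did before thinning. Tnfaip3, which encodes the NF-kB inhibitor A20, had 279 and 144 UMIs and a ratio of 1.36 (1.07 to 1.67), and 2.24 (1.84 to 2.65) in the main body, in 97 and 62 cells. Ier3, an early response gene, had 230 and 45 UMIs and a ratio of 2.76 (2.30 to 3.26), and 2.15 in the main body, in 67 and 34 cells. Socs3, an inhibitor of cytokine signalling, had 200 and 102 UMIs in 81 and 61 cells and a ratio of 1.38, and 1.69 in the main body. Other members of the list were lower: Nr4a2 had 94 and 261 UMIs with a ratio of -1.06, Klf2 had 137 and 371 with -1.03, and Fosb had -1.83 in the main body.

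Of 26 inflammatory mediators and their regulators, 11 were higher and 2 lower, with a median log2 ratio of 0.79, and in the main body 7 of 22 were higher and none lower with a median of 0.46. Il1b, the gene for interleukin-1 beta, had the highest level of those named here, with 2834 CPM in BLM and 1542 CPM in naive members and a ratio of 0.88 (0.78 to 0.97), and 0.87 in the main body. Il1rn, which encodes the antagonist of the interleukin-1 receptor, had 240 and 138 UMIs and a ratio of 1.21 (0.90 to 1.52), and 2.15 (1.65 to 2.67) in the main body. Osm, the cytokine oncostatin M, had 589 and 358 UMIs and a ratio of 1.13, and 0.64 in the main body. Tnf had 51 and 32 UMIs with a ratio of 1.08, and 1.24 in the main body. The ratios of Il6, at 1.78, and Ptgs2, which encodes cyclooxygenase-2, at 1.38, rested on few cells, since the 5 richest BLM cells held 88.3% and 72.2% of their UMIs. The 2 lower genes were Il18, with 18 and 51 UMIs and a ratio of -1.09, and Il15, with 6 and 19 UMIs and -1.25, and their main body ratios were -0.93 and -0.35. Nlrp3, the inflammasome sensor, had 188 and 214 UMIs and a ratio of 0.22, and 0.01 in the main body. Slpi, which encodes a secreted inhibitor of leukocyte proteases, had 492 and 276 UMIs and a ratio of 1.24 (1.03 to 1.46), and 1.85 in the main body.

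A pair of low-abundance genes had some of the highest ratios that held in the main body. Nrg1 (chromosome 8, 31814551 to 32884029, minus strand), which encodes neuregulin 1, a ligand of ErbB receptors, had 56 UMIs in 31 BLM cells and 2 UMIs in 2 naive cells. Its log2 ratio was 5.22 (3.30 to 8.30), and 5.27 in the main body. Ednrb (chromosome 14, 103814625 to 103844402, minus strand), the endothelin receptor type B, had 61 UMIs in 32 BLM cells and 4 in 4 naive cells, with a ratio of 4.34 (2.91 to 6.26), and 4.43 in the main body. At 2000 UMIs per cell, 12.1% and 0.455% of members held Nrg1 and 13.2% and 0.838% held Ednrb. In BLM B cells each was found in 0.192% of cells. Mmp19, a matrix metalloproteinase, had 315 and 76 UMIs in 69 and 42 cells, with a ratio of 2.46 (2.10 to 2.84), and 2.20 in the main body. Tfec, a transcription factor of the MiT family, had 38 and 4 UMIs and a ratio of 3.66 (2.18 to 5.61), and 3.18 in the main body.

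Several of the highest ratios among the 15 genes belonged to a list of macrophage genes in scarring tissue, and they rested on few cells. Of 32 genes listed for such macrophages, 16 were higher and 1 lower, with a median log2 ratio of 1.05, and in the main body 6 of 26 were higher and none lower with a median of 0.66. Arg1, arginase 1, had 285 UMIs in 17 BLM cells and 1 UMI in 1 naive cell, a ratio of 8.56 (6.08 to 13.87). The 5 richest cells held 90.9% of the BLM UMIs, and the main body had 31 and 1 UMIs. Spp1, osteopontin, had 484 UMIs in 43 BLM cells and 7 in 5 naive cells, a ratio of 6.52 (5.47 to 7.84), with 90.3% in the 5 richest cells and a ratio of 3.20 in the main body. Spp1 also lay in 18% of BLM B cells and Arg1 in 5.56%, with C1q-positive macrophages of the same library at 2939 and 924 CPM, and the part of free RNA in the low counts of the main body was not tested. Mmp12, the macrophage elastase, had 235 and 2 UMIs and 12 and 1 in the main body. Outside that list, Igfbp4, a binding protein of insulin-like growth factors, had 918 and 18 UMIs, with 98.6% in the 5 richest BLM cells and a ratio of 6.08 that was 1.01 in the main body. Timp1, a metalloproteinase inhibitor that was not listed either, had 181 and 9 UMIs and a ratio of 4.74, and 3.56 in the main body from 15 and 2 UMIs. Cd63, a listed tetraspanin of late endosomes, had 199 and 14 UMIs with ratios of 4.24 and 2.80. Gpnmb, a glycoprotein of phagocytes, had 101 and 13 UMIs with ratios of 3.37 and 1.75.

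Other genes of that list were spread more widely. Fn1, fibronectin, stood at 2772 CPM in BLM and 1415 CPM in naive members, with a log2 ratio of 0.97, and 0.84 in the main body. Apoe, the lipid carrier apolipoprotein E, had 783 and 527 UMIs and a ratio of 0.98 (0.82 to 1.14), and 0.94 in the main body. Chil3, a chitinase-like protein of monocytes and alternatively activated macrophages, had a ratio of 0.84. Emp1, an epithelial membrane protein, had 149 and 43 UMIs with ratios of 2.20 and 2.01. The lysosomal proteases had lower ratios in the main body than over all members: Ctsd had ratios of 1.75 and 0.95, and Ctsb 0.45 and 0.13. Psap, the precursor of the saposins, was among the most abundant of the list and had 6067 and 7891 UMIs and a ratio of 0.03.

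**Figure D3:**
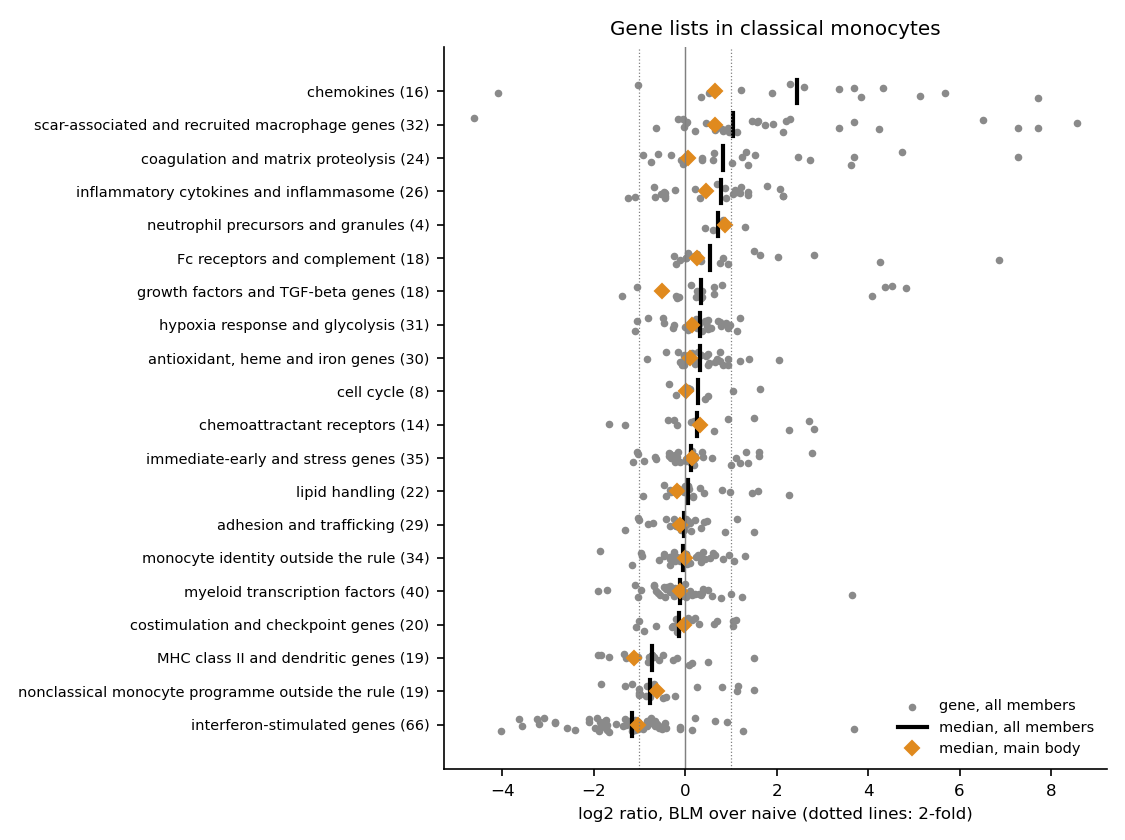
Log2 ratio of BLM over naive for each measured gene of the fixed lists with UMIs in both libraries (grey dots, all classical members). The black bar is the list's median and the orange diamond its median in the main body. Brackets count all measured genes, also those with no UMI in a library, which have no dot. Dotted lines mark 2-fold. Over all members the interferon response had the lowest median, -1.17. In the main body it was at -1.04 and the list of MHC class II and dendritic genes at -1.11. The chemokine median of 2.44 came down to 0.66 there.

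Growth factor genes and coagulation and matrix genes had lower medians in the main body than over all members. Of 18 growth factor genes 4 were higher and 2 lower with a median log2 ratio of 0.35, and in the main body none of 14 were higher and 2 were lower with a median of -0.50. The 4 higher genes, Igf1, Inhba, Hbegf and Gas6, had 92.2% to 100% of their BLM UMIs in 5 cells. Thbs1, thrombospondin 1, an activator of latent TGF-beta, was the most abundant, with 4319 and 4473 UMIs in 144 and 186 cells and a ratio of 0.36 (0.30 to 0.42), and 0.60 in the main body. Tgfb1, the gene for TGF-beta 1, was lower, with 18 UMIs in 15 BLM cells and 62 UMIs in 53 naive cells and a ratio of -1.37 (-2.22 to -0.60), and the same -1.37 in the main body. Vegfa had 102 and 282 UMIs and a ratio of -1.06 (-1.40 to -0.73), and -0.97 in the main body. Of 24 coagulation and matrix genes, 12 were higher with a median of 0.83, which was 0.07 over 17 genes in the main body with 4 higher. F10, coagulation factor X, had 132 and 86 UMIs with ratios of 1.03 and 1.02, and Adam9, a membrane metalloproteinase, 99 and 51 UMIs with ratios of 1.37 and 1.31. F3, tissue factor, had 57 UMIs in 5 BLM cells and none in naive members, which, with the naive group set at 3 counts, is at least 25.2-fold higher.

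The interferon response was lower in BLM members, and across most of its genes. Of 66 measured genes, 41 were 2-fold or more lower, 2 were 2-fold or more higher and 60 had a ratio below 0, with a median log2 ratio of -1.17. In the main body 33 of 65 were lower and 1 was higher with a median of -1.04. The rule's own Ly6c2 and Ms4a4c respond to interferon, and with cells chosen by F13a1 and Vcan instead, at 2 UMIs or more, the list's median was -1.33, and -1.12 when the main body limits were added. Ifit3 (chromosome 19, 34583531 to 34588731, plus strand), an antiviral gene with tetratricopeptide repeats, had 5 UMIs in 2 BLM cells and 108 UMIs in 23 naive cells. Its log2 ratio was -4.02 (-5.67 to -2.76), and -3.65 in the main body, with 75.9% of naive UMIs in 5 cells. Rsad2 (chromosome 12, 26442746 to 26456452, minus strand), which encodes viperin, had 17 UMIs in 12 BLM cells and 207 in 39 naive cells, with a ratio of -3.20 (-4.00 to -2.48), and -2.71 in the main body.

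The oligoadenylate synthetases, which sense double-stranded RNA, moved in 1 direction. Oas3 (chromosome 5, 120753098 to 120777661, minus strand) had 12 UMIs in 11 BLM cells and 95 in 58 naive cells, with a ratio of -2.58 (-3.58 to -1.70), and -2.55 in the main body. Oas1g had 1 and 28 UMIs and a ratio of -4.40 (-9.75 to -1.80). Oasl2, a related gene, had 39 and 185 UMIs and a ratio of -1.84 (-2.37 to -1.33), and -1.69 in the main body. Usp18, which restrains interferon signalling, had 5 and 48 UMIs and a ratio of -2.85, and -3.12 in the main body. Irf7, the transcription factor that amplifies type I interferon, had 62 UMIs in 39 BLM cells and 271 in 112 naive cells, with a ratio of -1.72 (-2.14 to -1.32), and -1.38 in the main body. Slfn5, a schlafen gene, was found in 20.4% of BLM and 45.1% of naive members after thinning, with 100 and 438 UMIs and a ratio of -1.72 (-2.05 to -1.40). In B cells Slfn5 was found in 1.72% and 6.21%, against 31.4% and 62.6% of members before thinning. Rtp4, a chaperone induced by interferon, had ratios of -1.97 and -2.14 in the main body.

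Of the genes at or above the list's median over all members, 4 are described here. Ifitm3, which blocks virus entry, had 1540 and 3036 UMIs and a ratio of -0.57 (-0.66 to -0.48), and -0.35 in the main body. Isg15, a ubiquitin-like modifier, had 62 and 184 UMIs and a ratio of -1.16, and -1.25 in the main body. Stat2 and Irf9, transcription factors of the response, had ratios of -0.82 and -0.66, and -0.53 and -0.44 in the main body. The genes that went the other way were few. Slfn2 had 771 and 541 UMIs and a ratio of 0.92, and 1.40 in the main body. Cxcl9 was higher from the UMIs of 1 BLM cell. Ly6a had 95.1% of its BLM UMIs in 5 cells and a ratio of 1.28 over all members that was -1.52 in the main body.

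The difference was one of most cells. The 74 listed genes present in the data together had a median of 104 per 10000 UMIs per BLM cell (quartiles 78.6 and 138). The median was 159 per naive cell (quartiles 125 and 199). In the main body the medians were 107 and 162 per 10000. Of the 135 BLM cells 18 (13.3%) lay above the naive median, and of the 184 naive cells 160 (87.0%) lay above the BLM median. A tail of naive cells reached further, up to 928 per 10000 against 412 in BLM. B cell, NK cell and plasmacytoid markers were also higher in naive members, by the counts given above, and their part in the interferon result was not tested.

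**Figure D4:**
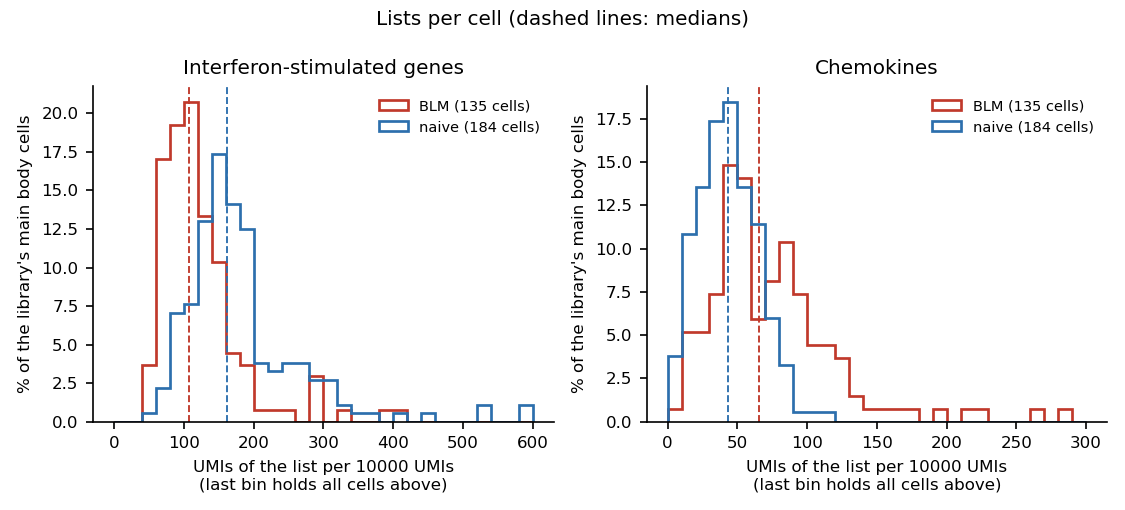
Histograms over the main body cells (135 BLM, 184 naive) of the UMIs of the interferon response list and of the chemokine list per 10000 UMIs of the cell, with dashed lines at the medians and the last bin holding all higher values. The interferon medians were 107 in BLM and 162 in naive, and the chemokine medians were 65.2 and 43.4.

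Other genes lower in BLM members included surface proteins and enzymes. Ly6i (chromosome 15, 74979534 to 74983430, minus strand), a Ly6 family member that lies near Ly6c2 on chromosome 15, had 12 UMIs in 9 BLM cells and 135 in 48 naive cells, with a ratio of -3.08 (-4.07 to -2.23), and -2.61 in the main body. Genes of this family are alike in sequence, so reads may be split between them. Plac8, an abundant monocyte gene, had 1522 and 4511 UMIs and a ratio of -1.16 (-1.24 to -1.07), and -0.87 in the main body. Cd300lb, an activating receptor of myeloid cells, had 28 UMIs in 23 BLM cells and 129 in 85 naive cells, with a ratio of -1.79 (-2.44 to -1.20), and -1.52 in the main body. Cd209a, a lectin of dendritic cells and some monocytes, had 36 UMIs in 9 BLM cells and 172 in 33 naive cells, with ratios of -1.85 and -1.61. Lyz1, a lysozyme gene close in sequence to Lyz2, had 80 and 389 UMIs, with 79.2% of naive UMIs in 5 cells and ratios of -1.87 and -1.02. Pltp, a phospholipid transfer protein, had 34 and 150 UMIs with ratios of -1.73 and -0.67. Retnla, a secreted protein of alternative activation, had the most extreme ratio, -4.61 (-5.03 to -4.22) from 53 and 1720 UMIs, but 97.6% of the naive UMIs lay in 5 cells. Retnla had 27 and 38 main body UMIs and a ratio of 0.16, so its direction turned.

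A mixed list of MHC class II and dendritic cell genes was lower in the main body. Of 19 genes, 1 was higher and 6 were lower over all members with a median log2 ratio of -0.72, and in the main body 8 of 15 were lower and none higher with a median of -1.11. H2-Ab1, a class II beta chain, had 777 UMIs in 63 BLM cells and 1812 in 130 naive cells, with a ratio of -0.81 (-0.93 to -0.69), and -1.55 in the main body. Cd74, the invariant chain, had 1103 and 2191 UMIs with ratios of -0.58 and -1.11. Members with class II genes at 1% of UMIs or more numbered 13 in BLM and 29 in naive, of which 4 and 19 were in the main body. B cells express these genes strongly, and B cell markers were higher in naive members by the counts above, so their part in this result was not tested.

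The nonclassical programme was lower as a group. Of 19 genes linked to nonclassical monocytes and not used by the rule, 3 were higher and 5 lower with a median of -0.77, 14 of them below 0. In the main body none of 18 were higher and 2 were lower with a median of -0.61, and -0.44 where it was chosen by F13a1 and Vcan. Over all genes, 7.59% were higher and 5.31% lower in all members, and 3.71% and 5.52% in the main body. The rule kept only cells with more of its 4 genes than of 5 nonclassical genes. The sum of the 4 genes had a median of 12 in BLM and 20 in naive members, so naive members could hold more nonclassical transcripts and still pass. The part of the rule in this result was not tested. Spn, the sialoglycoprotein CD43, had 20 and 95 UMIs and a ratio of -1.84, and Pou2f2, a transcription factor, had 129 and 382 UMIs with -1.16. Nr4a1, the factor that nonclassical monocytes need, had 397 and 613 UMIs and a ratio of -0.22. The 3 higher genes, Itgax, Cd9 and Bcl2a1a, had ratios of 1.52, 1.12 and 1.15 over all members and of -0.20, -0.61 and -0.12 in the main body.

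The list of genes that define monocytes had a median close to that of all genes. Of 34 monocyte identity genes 2 were higher and 2 lower, with a median of -0.05, and 0.01 in the main body. Over all 7058 genes 7.59% were higher and 5.31% lower, with a median of -0.02. Single monocyte genes differed more, such as Plac8, described above, with a ratio of -1.16. Lyz2 had 17508 and 29373 UMIs and a ratio of -0.34 (-0.36 to -0.31). Csf1r, the receptor of the monocyte growth factor, had 340 and 495 UMIs with a ratio of -0.13, and -0.10 in the main body. Cd14, the co-receptor for bacterial lipopolysaccharide, had 1766 and 1617 UMIs with ratios of 0.54 and 0.71, and Clec4e, a receptor for damaged cells and mycobacterial lipid, 539 and 343 with 1.06 and 1.24.

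Co-stimulation was close to even. Of 20 co-stimulatory and inhibitory genes 3 were higher and 2 lower with a median of -0.14, and -0.03 in the main body. Cd80, a ligand of CD28 on T cells, had 58 UMIs in 38 BLM cells and 87 in 59 naive cells, or 79.6 against 89.8 CPM, a log2 ratio of -0.17 (-0.68 to 0.32), and -0.11 in the main body. Cd86, the other ligand of CD28, had 58 and 62 UMIs and a ratio of 0.31 (-0.23 to 0.85), and -0.02 in the main body, with B cells higher at 223 and 159 CPM. Neither difference was detectable at this depth. Cd274, the inhibitory ligand PD-L1, had 25 and 16 UMIs with a ratio of 1.05, and 0.19 in the main body. Tff1, a trefoil factor of mucous epithelia, had no UMI in any of the 356 members, so up to 3 UMIs in 729046 and in 968821 could have been missed.

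Of the other lists, those for adhesion, lipid handling and transcription factors had medians close to that of all genes. Adhesion and migration genes had a median of -0.03 over 29 genes, with 2 higher and 2 lower, and none beyond 2-fold in the main body. Hypoxia and glycolysis genes had a median of 0.32 over 31 genes with 3 higher and 2 lower, and 0.14 in the main body. Antioxidant and metal genes had a median of 0.31 over 30 genes with 3 higher and none lower, and 0.11 in the main body, among them Slc7a11, the cystine transporter, with 69 and 22 UMIs and ratios of 2.06 and 1.82, and Srxn1, sulfiredoxin, with 69 and 35 UMIs and 1.39. Lipid genes had a median of 0.07 over 22 genes with 3 higher, and -0.18 in the main body with 1 of 20 higher. Abca1, which exports cholesterol, had 40 and 11 UMIs with ratios of 2.27 and 2.31. Transcription factors had a median of -0.12 over 40 genes with 3 higher and 4 lower, and -0.10 in the main body. Id2, an inhibitor of helix-loop-helix factors, had 407 and 230 UMIs with ratios of 1.23 and 1.51, and Runx2 had 9 and 45 with -1.91. Fc receptor and complement genes had a median of 0.55 over 18 genes with 6 higher, and 0.27 over 15 genes with 2 higher in the main body. The 8 cell cycle genes had a median of 0.27 with 2 higher, and 0.02 with none higher in the main body. The 4 genes of neutrophil precursors and granules had a median of 0.72 with 1 higher, and 0.86 in the main body.

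Nonclassical monocytes of the same libraries, 175 BLM and 207 naive cells chosen by the mirror rule, served for comparison. Over their 7239 genes the median log2 ratio was 0.01. The difference of the 2 ratios, with its counting interval, compares these libraries and not the conditions. Cxcl2 was higher in BLM cells of both types, with ratios of 3.85 in classical and 1.91 (1.72 to 2.10) in nonclassical monocytes, a difference of 1.94 (1.60 to 2.29). Nfkbia differed by 0.90 (0.72 to 1.07) in the same direction. Slpi had a ratio of -0.58 in nonclassical monocytes, and the difference was 1.83 (1.28 to 2.39). Ccr1 had ratios of 2.27 and 2.12, a difference of 0.15 (-0.83 to 1.05), although its level in BLM cells was 606 CPM in classical and 66.7 CPM in nonclassical monocytes.

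The interferon list as a whole was lower in BLM cells of each type compared. It summed to 10293 CPM in BLM and 17495 CPM in naive classical monocytes, to 7838 and 12983 CPM in nonclassical monocytes, and to 5399 and 7719 CPM in B cells. Single genes differed more between the monocyte types. Rsad2 had a ratio of 0.01 (-0.93 to 0.93) in nonclassical monocytes, a difference of -3.21 (-4.42 to -1.98), and Slfn5 had -0.06 (-0.47 to 0.34), a difference of -1.66 (-2.18 to -1.13). Irf7 and Oas3 were lower in both, with differences of -0.19 (-0.88 to 0.51) and -0.56 (-2.08 to 1.04) whose intervals include 0. Ly6i was lower in both and more so in classical monocytes, by -1.14 (-2.19 to -0.21). The median difference between the cell types was 1.36 over the 15 higher genes and -1.11 over the 15 lower genes, and 0.89 and -0.54 in the main bodies. These genes were picked for their ratio in classical monocytes.

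**Figure D5:**
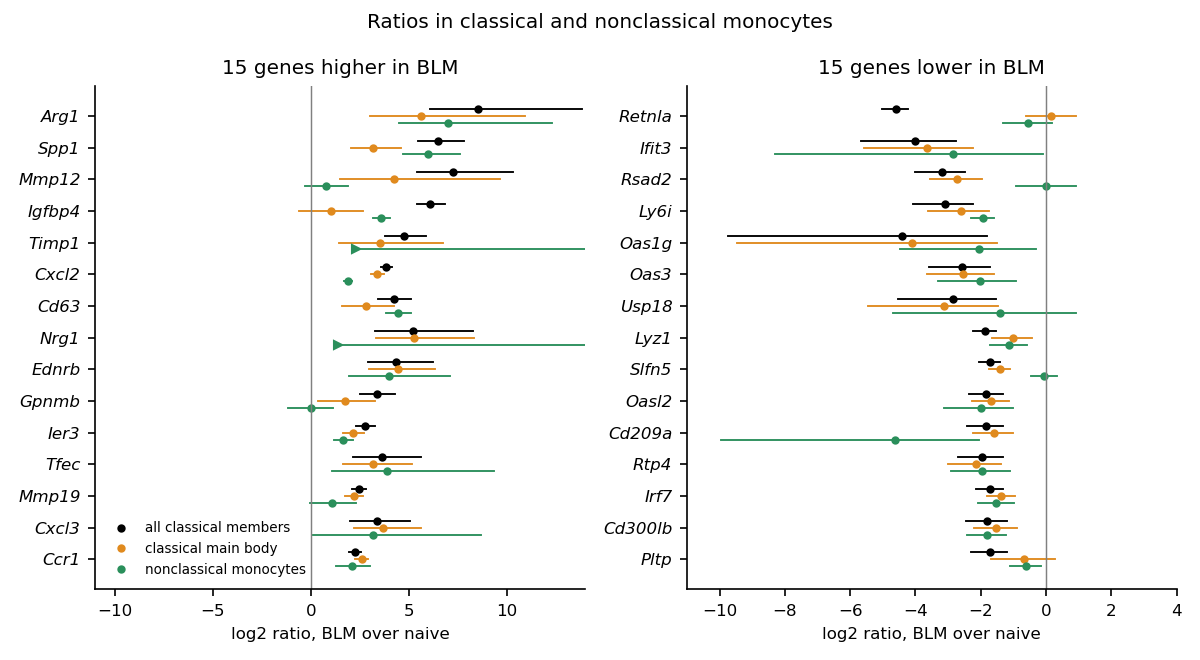
Log2 ratio of BLM over naive with its counting interval for the named genes in all classical members (black), the classical main body (orange) and nonclassical monocytes (green). Arrowheads mark lower bounds where the naive count was 0, and lines that reach the axis edge go on beyond it. Rsad2 and Slfn5 lay near 0 in nonclassical monocytes, and the orange values of Arg1, Spp1, Igfbp4 and Retnla lay closer to 0 than the black ones.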

How the data were processed

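The authors ran the BD Rhapsody WTA Analysis Pipeline 1.8 and deposited raw UMI counts per cell and gene, after RSEC error correction, on GRCm38 with GENCODE vM19, per the file headers. Their later cell filter and Seurat clusters were not used here. Each of the 2 libraries gives 1 value per group. A gene absent from a table was set to 0, and 0 columns stayed unmapped. Member UMIs were summed per library and scaled to 1000000 (CPM). Log2 ratios have conditional binomial intervals, levels exact Poisson intervals and shares Clopper-Pearson intervals at 95%. Ratios were taken for genes with 20 or more member UMIs and called at 2-fold. A count of 0 allows up to 3 counts. B cells were cells with 3 or more UMIs of Cd79a, Cd79b and Ms4a1 and at most 1 of each other cell type's rule genes. The nonclassical rule exchanged the 2 marker sets. Doublets were kept, and the top 3% by Scrublet score were left out as an alternative (1 BLM and 6 naive members). Named genes were the first 15 in each direction, ranked by the interval's end nearer 0, with 10% detection in the higher library and B cells at 25% or less of the level (1 higher and 10 lower genes were left out by this limit), Ccr2, Tff1, Tgfb1, Cd80 and Cd86, and in each list the 2 to 4 largest and smallest ratios and members at 1000 CPM or more. Outside this rule, and chosen after their values were seen, are Slpi and these list members: Ccl2, Ccl3, Ccl4, Ccl7, Ccl17, Il1rn, Il6, Osm, Ptgs2, Tnf, Nlrp3, Tnfaip3, Socs3, Fosb, Isg15, Stat2, Irf9, Ctsd, Emp1, Igf1, Inhba, F3, F10, Adam9, Csf1r, Nr4a1 and Pou2f2. The members and gene lists were chosen with earlier results of these data known. Gene positions are from GENCODE vM21 (GRCm38). Of the 30 ranked genes, 24 had a RefSeq promoter. Code was tested on simulated data. Python 3.11.15, scanpy 1.11.5, scipy 1.17.1, numpy 2.4.6, matplotlib 3.10.9 and R 4.3.3 were used, with edgeR 4.0.16 for the TMM factor alone.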

Additional observations from a re-analysis of the deposited data

Results flagged for a closer look

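For 14 of the genes named by rule, the ratio of BLM over naive lay above 0 in 1 monocyte type and below 0 in the other. The counting interval of each of these 2 ratios left out 0. Genes chosen after their values were seen, such as Slpi, were not part of this search. With 1 library per group, no difference was tested between samples. The log2 difference, classical minus nonclassical, was -0.84 for Ccr2, whose ratio was -0.24 in classical and 0.60 in nonclassical monocytes, and -0.01 and 0.63 in the main bodies. It was 1.78 for Apoe, with ratios of 0.98 and -0.80, and the signs were the same in the main body of each type (0.94 and -0.19). It was -3.12 for Cxcl10, with ratios of -1.04 and 2.08, and -3.05 and 0.93 in the main bodies. The classical Cxcl10 ratio rested on few cells, as given above. With cells chosen by F13a1 and Vcan it was 0.24, so its sign was not kept.

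Among antigen presentation genes the difference was -3.27 for H2-DMb2, -1.32 for H2-Aa and -1.09 for Cd74, but in the main bodies all 3 genes had ratios below 0 in both types. For Ccl5 it was -5.02, and the main body ratios were -1.99 and -1.34, again both below 0. The differences of Itgax, 1.88, Lgals3, 0.52, and Ctsb, 0.77, also came with ratios of 1 sign in the main bodies. Ccr7 had a difference of -4.84 from few UMIs, and in the main bodies it had no BLM UMI in classical monocytes and a ratio of -0.72 in nonclassical ones. Cst3, S100a4 and H2afz, genes for cystatin C, a calcium-binding protein and a histone variant, had differences of -0.47, -0.41 and -1.06. In the main bodies Cst3 had ratios below 0 in both types (-0.28 and -0.19), while S100a4 (-0.14 and 0.05) and H2afz (-0.23 and 0.38) had opposite signs.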

How the results depend on the processing

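The alternatives that keep the main body, leave out stromal-marker members or join F13a1 and Vcan with the main body limits were chosen after seeing the data. No paired analysis was possible because each group has 1 library. A minimum of 10 UMIs of the rule genes gave shares of 2.25% (BLM) and 4.33% (naive), and no C1q or Ms4a7 UMI gave 2.19% and 4.23%. The naive share was 5.95% at a limit of 10% mitochondrial UMIs, 4.23% with F13a1 and Vcan, and 3.75% with the main body limits added. The 536 higher genes became 281 with 10 rule UMIs (43.0% of calls higher), 224 in the main body (40.2%), 260 without stromal-marker members (40.8%) and 243 with F13a1 and Vcan in the main body (47.6%). No C1q or Ms4a7 UMI gave 48.2% of calls higher. With the B cell level subtracted there were 1088 higher and 600 lower genes and the median of all genes moved to 0.23, with no minimum of UMIs 1376 and 880, and with a minimum of 100 UMIs 113 and 89. The stromal-marker members left out were 5 BLM cells and 1 naive cell. Without them 260 of 6610 measured genes were higher and 378 were lower. With them 536 of 7058 were higher and 375 were lower. The settings also measured fewer or more genes, and the cause of these changes was not tested.

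Of 81 named genes beyond 2-fold, all 81 kept their direction under TMM scaling, and 68 of the 74 that could be measured did in the main body. The directions that turned were Retnla, 0.16 in the main body and 0.24 with F13a1 and Vcan there, Bcl2a1a, -0.12 in the main body, and Itgax, -0.37 with no C1q or Ms4a7 UMI and -0.20 in the main body. Ly6a was -0.69 with 10 rule UMIs, -1.52 in the main body, -2.46 without stromal-marker members, -1.48 with F13a1 and Vcan in the main body and -0.068 by the mean of cell shares. Csf1 was -1.93 and -2.02 in the 2 main body settings. Cd9 was -0.25 with 10 rule UMIs, -0.60 with no C1q or Ms4a7 UMI, -0.61 in the main body and -0.062 with F13a1 and Vcan there. Cxcl10 was 0.24 with F13a1 and Vcan, and Ccr7 was 0.36 at a minimum of 3 rule UMIs. Over 15 settings the interferon median ranged from -1.495 to -0.97 and the chemokine median from 0.66 to 2.99. The median of the MHC class II and dendritic genes ranged from -1.19 to -0.37. Genes under 20 UMIs over the members were beyond this depth.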
